A study of Mus musculus with 2 samples.

Results

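The 10 genes described here belong to the extracellular matrix, are not collagens, and were followed on 2 arrays, one for a wild-type and one for a Sox11 knockout retina of embryonic mice. They are the small leucine-rich proteoglycans Dcn, Lum, Bgn and Ogn, the mineral-binding protein Mgp, and the matrix glycoproteins Postn, Fbln1, Efemp1, Pcolce and Sparc. All probe sets annotated with exactly 1 of these 10 symbols were taken, which gave 19 of the 45037 probe sets that are not array controls, for 10 of 18193 named genes. The genes were selected with differences between these same arrays in view, so what follows is a description of their values. Each genotype (wild-type and Sox11-/-, both on a C57BL/6 background and both from embryonic day 18) was represented by 1 retina of a littermate embryo on 1 Affymetrix array, with no replicate. Which part of Sox11 was deleted is not stated in the labels, and the knockout is labelled with no tissue-specific driver. There is no spread between animals to hold a difference against and no p-value can be given: every comparison is of 1 array with 1 other, and that number sets the precision.

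The matrix between cells is built from fibres, mainly of collagen, and from proteins that bind, space and anchor them. Small leucine-rich proteoglycans are secreted proteins with short sugar chains that sit on collagen fibrils and control their diameter and spacing, and lumican in this group is needed for a clear cornea. In and around the embryonic eye such genes are typical of the mesenchyme that forms cornea, sclera and choroid and of the cells around blood vessels, while the neural retina itself holds little fibrillar matrix. Sox11 is a transcription factor of differentiating neurons.

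Values are deposited probe set intensities, scaled so that both arrays have the same trimmed mean of 100. A log2 ratio is the knockout value less the wild-type value, both as log2(intensity + 5). For dim probe sets this makes the difference smaller than the plain ratio would. A reading that may be background can still leave such a difference too small or too large. An intensity of 18.6, the median of both arrays pooled, served as the low-value filter. A probe set was kept if its higher value reached 18.6, and where the lower value was under it, the log2 ratio rests on a reading that may be background, and the brighter intensity over 18.6 is given as "at least" that fold.

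Of the 10 genes, 7 were at least 2-fold higher on the knockout array at their brightest probe set, namely Dcn, Lum, Bgn, Mgp, Postn, Efemp1 and Pcolce, and none was 2-fold lower. Over all genes past the filter, the share at least 2-fold higher was 0.943%, and the share at least 2-fold lower was 0.407%. With wild-type values under 18.6 set to 18.6, the plain fold was 2 or more for the same 7 genes, against 0.718% of all genes. Ogn and Sparc were higher by less than 2-fold, and Fbln1 was slightly lower at its brightest probe set and level at the next. The median log2 ratio of the 10 genes was 1.37, against -0.01 over all 11557 genes past the filter, bright and dim. Dim probe sets in general read higher on the knockout array. In the dimmest of 4 equal bands of level, the median over all probe sets was 0.15. With dim intensities raised to 18.6, the median of the 10 was 1.22. Since the genes were chosen on this contrast, nothing is read from their share or their median. By their brightest probe sets, Dcn, Lum, Mgp and Postn were below the filter on the wild-type array and entered only through their knockout value.

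**Figure D1:**
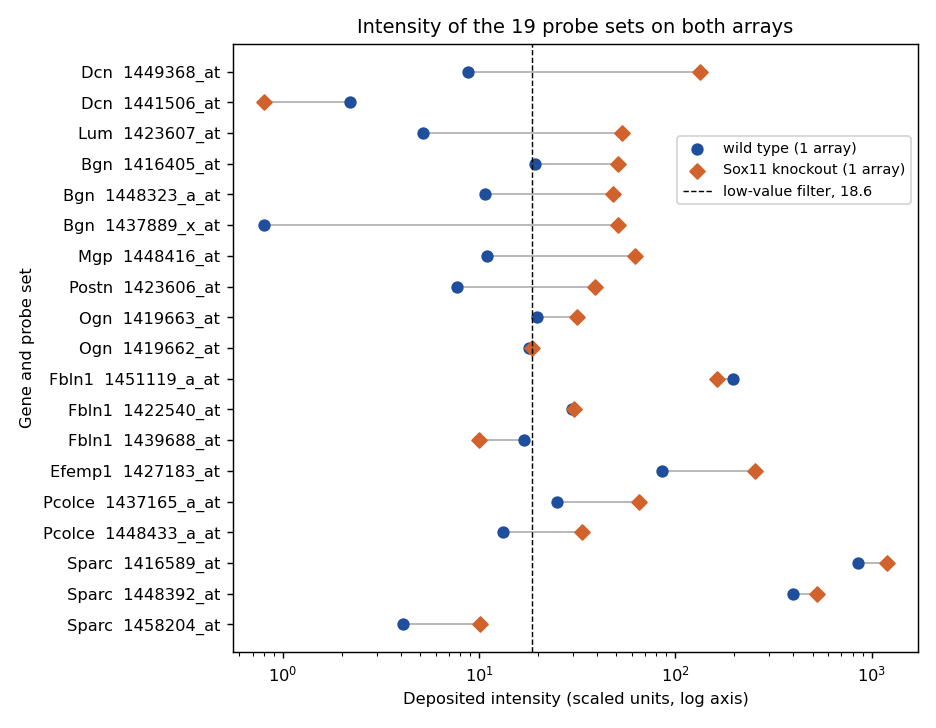
Deposited intensity (log axis, scaled units) of each of the 19 probe sets on the wild-type array (circles) and the knockout array (diamonds), joined by a line; each point is 1 array and the dashed line is the filter of 18.6. The wild-type points of Dcn, Lum, Mgp and Postn lie left of the line and their brightest knockout points right of it, while both arrays lie close together for the 2 Fbln1 probe sets past the filter and for the bright Sparc probe sets.

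Among the small leucine-rich proteoglycans, decorin (Dcn), which binds collagen fibrils and sequesters TGF-beta, had the largest ratio. Its probe set 1449368_at read 8.8 on the wild-type array and 133.3 on the knockout array, which is a log2 ratio of 3.33, or at least 7.17-fold higher. The other Dcn probe set, 1441506_at, read 2.2 and 0.8, under the filter on both arrays. So the higher decorin signal rests on a single probe set, and the second one gave no usable reading. Lumican (Lum), the keratan sulfate proteoglycan of the cornea, read 5.2 and 53.3 on its only probe set. That is a log2 ratio of 2.51, or at least 2.87-fold higher. Dcn and Lum are next to each other on chromosome 10, followed by Kera and Epyc, which encode 2 more proteoglycans of this family. Kera (keratocan) read 0.6 and 3.4 and Epyc (epiphycan) read 5.2 and 0.4, both below the filter on both arrays. Neither gave a usable reading, so whether the higher signal extended to these neighbours cannot be told.

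Biglycan (Bgn), the closest relative of decorin, was the proteoglycan with the most probe sets, and all 3 were higher in the knockout. The probe set 1416405_at read 19.3 and 51.1, a log2 ratio of 1.21 with both arrays above the filter. The probe set 1448323_a_at read 10.7 and 48.0, a log2 ratio of 1.76, or at least 2.58-fold. The probe set 1437889_x_at read 0.8 and 51.0, a log2 ratio of 3.27, or at least 2.74-fold. The 3 knockout values nearly coincide, and the spread of the ratios comes from the wild-type values, which are at or under the filter. The suffix of 1437889_x_at marks possible matches to other transcripts. Bgn is on the X chromosome, and sex-linked transcripts set the arrays apart. Xist, the RNA of the inactive X, read 12.3 and 922.7, and the Y-linked gene Eif2s3y read 214.0 and 4.7; these genes were named after their values were seen. Sex and genotype cannot be told apart here for any gene.

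Osteoglycin (Ogn), also called mimecan, differed least among the proteoglycans. Its probe set 1419663_at read 19.7 and 31.5, a log2 ratio of 0.56, and 1419662_at read 18 and 18.6, a ratio of 0.04. The second probe set was the one closest to the filter from inside, and the closest from outside was 1439688_at of Fbln1, with 17.0 as its higher value. The sign of 1419662_at turned negative under some of the processing settings. The neighbouring proteoglycan genes of Ogn on chromosome 13, Omd (osteomodulin), Aspn (asporin) and Ecm2, had no probe set past the filter. Aspn read 2.5 and 4.4 on its brighter probe set and Omd read 0.2 and 4.9.

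Matrix Gla protein (Mgp), a secreted inhibitor of calcification made by cartilage and by vascular smooth muscle, has 1 probe set. It read 11.0 and 62.2, a log2 ratio of 2.07, or at least 3.34-fold higher. Periostin (Postn), a matricellular protein of mesenchyme that promotes collagen cross-linking, also has 1 probe set and read 7.7 and 38.8. Its log2 ratio was 1.79 and its fold at least 2.09. Both genes had only a bound for the wild type. With the lower value set to the filter, the Postn ratio was 0.89, under 2-fold on that scale.

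The 2 fibulins among the 10 genes did not behave alike. Efemp1 encodes an elastic-fibre-associated fibulin whose mutated human form causes a macular dystrophy with deposits under the pigment epithelium. It read 85.6 and 253.9, so that it was 2.97-fold higher on the knockout array, with a log2 ratio of 1.51. This was the brightest of the 2-fold differences and was measured above the filter on both arrays, although by 1 probe set. Its ratio stayed between 1.39 and 1.57 over all processing settings. Fbln1, a fibulin of basement membranes and elastic fibres, read 196.4 and 163.1 on its brightest probe set 1451119_a_at, a log2 ratio of -0.26. Its probe set 1422540_at was level, at 29.7 and 30.3 with a ratio of 0.02, and turned slightly negative under some settings. The ratio of 1451119_a_at stayed negative over all settings, from -0.29 to -0.24. Its suffix marks possible matches to several transcripts, which can be transcripts of the same gene. Without such probe sets the value of Fbln1 is that of 1422540_at. The direction of Fbln1 thus rests on 1451119_a_at and is not settled across its probe sets.

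Pcolce, a secreted enhancer of the protease that trims the C-terminal propeptide off fibrillar procollagens, was higher on both of its probe sets. The probe set 1437165_a_at read 24.8 and 64.9, a log2 ratio of 1.23, or 2.62-fold. The probe set 1448433_a_at read 13.3 and 33.4, a log2 ratio of 1.07, or at least 1.80-fold. Both carry a suffix for probe sets that can match several transcripts, which can be transcripts of the same gene. Pcolce has no value once such probe sets are left out. Sparc (osteonectin), a collagen-binding matricellular protein, was well above the filter on both arrays. The probe set 1416589_at read 853.7 and 1202.4 and 1448392_at read 396.5 and 529.5, with log2 ratios of 0.49 and 0.41. The third, 1458204_at, read 4.1 and 10.1, under the filter. Both bright Sparc probe sets were thus higher by less than 2-fold, and they lay 0.08 apart, which is inside the pooled SD of 0.26 between probe sets of a gene over 5612 genes.

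Sequence before the transcription start was available for 7 of the 10 genes, and it is shown for the 4 of these that were at least 2-fold higher and for Fbln1, which was not. RefSeq windows of 250 bases upstream of an annotated start (build GRCm38.p6) are printed 5′ to 3′ on the strand of the gene. Capitals mark ACAAT, a core bound by Sox proteins, on either strand. ACAAAG, also searched on both strands, was not found in any of the 9 windows of these 7 genes. Dcn, Lum and Mgp had no window and were not searched.
Postn, first start (chr3:54359017-54359266, plus strand): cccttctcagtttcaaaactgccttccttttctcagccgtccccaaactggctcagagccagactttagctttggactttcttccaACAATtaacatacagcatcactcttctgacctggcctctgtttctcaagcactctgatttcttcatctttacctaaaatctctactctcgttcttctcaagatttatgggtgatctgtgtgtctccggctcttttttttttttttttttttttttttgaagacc
Postn, second start (chr3:54360857-54361106, plus strand): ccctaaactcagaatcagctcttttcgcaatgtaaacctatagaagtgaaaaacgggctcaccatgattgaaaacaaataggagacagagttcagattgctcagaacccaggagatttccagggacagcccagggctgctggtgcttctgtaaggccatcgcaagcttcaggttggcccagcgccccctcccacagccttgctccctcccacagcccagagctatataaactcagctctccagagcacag
Efemp1 (chr11:28852955-28853204, plus strand): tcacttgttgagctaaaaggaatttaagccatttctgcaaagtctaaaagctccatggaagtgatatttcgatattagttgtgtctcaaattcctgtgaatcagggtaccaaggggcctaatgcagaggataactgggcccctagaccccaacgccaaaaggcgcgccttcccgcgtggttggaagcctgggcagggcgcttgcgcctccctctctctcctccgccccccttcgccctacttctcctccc
Bgn (chrX:73483351-73483600, plus strand): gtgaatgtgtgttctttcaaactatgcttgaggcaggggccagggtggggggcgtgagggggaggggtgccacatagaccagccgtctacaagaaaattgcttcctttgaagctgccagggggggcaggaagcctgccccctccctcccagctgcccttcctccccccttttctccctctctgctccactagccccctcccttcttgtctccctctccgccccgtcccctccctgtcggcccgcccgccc
Pcolce (chr5:137611405-137611654, minus strand): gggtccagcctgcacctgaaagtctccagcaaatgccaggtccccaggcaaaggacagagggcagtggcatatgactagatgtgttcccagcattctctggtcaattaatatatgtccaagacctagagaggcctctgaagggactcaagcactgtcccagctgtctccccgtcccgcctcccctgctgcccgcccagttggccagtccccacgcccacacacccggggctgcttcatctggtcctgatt
Fbln1, first start (chr15:85205699-85205948, plus strand): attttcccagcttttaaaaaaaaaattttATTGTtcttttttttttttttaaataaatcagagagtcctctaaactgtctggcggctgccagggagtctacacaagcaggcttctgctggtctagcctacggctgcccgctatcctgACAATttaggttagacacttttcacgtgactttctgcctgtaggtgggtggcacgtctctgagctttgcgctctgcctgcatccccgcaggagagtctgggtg

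ACAAT was found in 3 of the 9 windows of the 7 genes, against 27.7% of all 32851 windows of this length, and ACAAAG was found in 16.5% of all windows. The 3 windows are the first of Postn and both of Fbln1, and the Fbln1 windows overlap and share 1 match. The windows of Efemp1, Bgn and Pcolce held neither string. The motif TATAAA, on either strand, was in the second Postn window and in that of Ogn, against 12.4% of all windows. The share of G and C ran from 40.4% in the first Postn window to 64.4% in the Bgn window, around the median of 52.4% over all windows. These are descriptions of letters in a window, not of binding.

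By probe set, 16 of the 19 passed the filter, and 10 of these were at least 2-fold higher and none 2-fold lower. Over all 23581 probe sets past the filter, 1.47% were higher by 2-fold or more and 0.399% were lower by as much. The wild-type value was below 18.6 for 8 of the 16, against 6.07% of all probe sets past the filter. In the dimmest of 4 equal bands of mean level, which held 11 of the 16, 8 were at least 2-fold higher. All of these 8 except 1416405_at of Bgn were under 18.6 on the wild-type array and passed the filter only through their knockout value. The share over all probe sets there was 4.66%, and the central 95% of ratios ran from -0.76 to 1.18. Of the 5 member probe sets in the 3 brighter bands, Efemp1 and the brighter Pcolce probe set were at least 2-fold higher, against 0.407% of all probe sets in those bands. In the second band, which holds that Pcolce probe set, the central 95% of ratios ran from -0.53 to 0.77. In the third band, which holds Efemp1, the central 95% ran from -0.44 to 0.57, and in the highest, which holds Sparc, from -0.38 to 0.41. Among the 8 member probe sets above the filter on both arrays, 3 were at least 2-fold higher, one each for Bgn, Efemp1 and Pcolce, against 0.489% of all probe sets above it on both. As the genes were chosen on this contrast, nothing is read from these shares or from a place outside the central 95%.

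**Figure D2:**
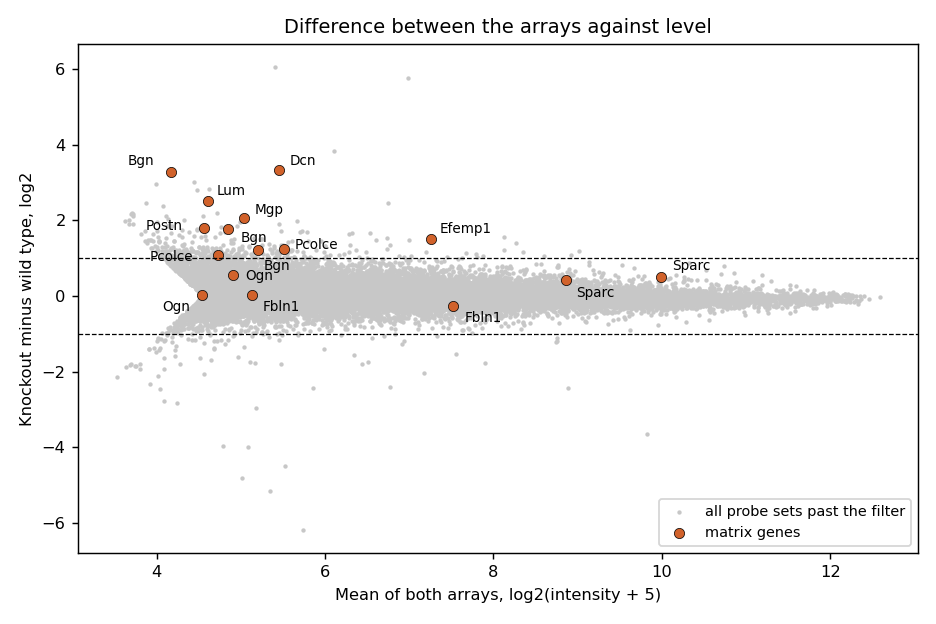
Log2 ratio (knockout minus wild type) against mean log2(intensity + 5) of both arrays for the 23581 probe sets past the filter (grey) and the 16 matrix gene probe sets among them (orange, labelled); dashed lines mark 2-fold. Most of the matrix probe sets above the upper line are dim, and Efemp1, at 1.51, is the brightest of them.

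The split of 2-fold differences over all genes and probe sets depended on scaling. It was 347 higher and 94 lower among probe sets as deposited, 252 and 126 after quantile normalization, and 258 and 124 after loess. Among genes it was 109 and 47 as deposited and 91 and 63 after quantile normalization. The 7 genes named above were 2-fold higher after quantile normalization and after loess too. The targeted gene, Sox11, had 6 probe sets with log2 ratios from -3.64 to 1.08, of which 4 were at least 2-fold lower in the knockout; a probe set outside the deleted part checks nothing. As a check on tissue, all 8 neural retina markers measured here (Pax6, Rax, Six6, Lhx2, Crx, Otx2, Isl1 and Neurod1) were past the filter on these arrays, with a summed intensity of 10446.9 on the wild-type and 10331.8 on the knockout array and a median log2 ratio of -0.02.

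The other genes of these families, grouped by function, were set beside the 10. These lists too were drawn up with earlier results known. Beside their counts of positive ratios, the share over all genes past the filter was 47.7%. Of 13 other small leucine-rich proteoglycans, 11 had a probe set and only 3 were past the filter. All 3 were lower in the knockout by less than 2-fold: Optc (opticin of the vitreous) read 56.8 and 35.2, Prelp 86.1 and 59.7, and Podn 36.9 and 31.4, with log2 ratios of -0.62, -0.49 and -0.20. The direction of Dcn, Lum and Bgn was not that of these 3. Since Dcn, Lum and Bgn were chosen on this contrast, nothing is read from that. Among other fibulins and elastic fibre genes, 8 of 16 were past the filter, 4 positive and 4 negative, with a median of 0.10 and none 2-fold apart. Ltbp1, which tethers latent TGF-beta, and Fbn2, a fibrillin, had ratios of 0.81 and 0.77, Mfap4 0.46, and Fbln2 -0.48. Among other Sparc relatives and matricellular genes, 11 of 14 were past the filter and 7 were positive, with a median of 0.24. Tnr, a tenascin of neural tissue, was the one at least 2-fold higher on the log2 scale, from 8.0 to 24.0, but only at least 1.29-fold against the filter. Ccn1 was at least 1.41-fold higher, and Tnc and Smoc1 had -0.53 and -0.42.

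Fibrillar collagens, the fibres these proteoglycans decorate, had a median of 0.57 over 7 of 9 genes, 5 positive and 2 at least 2-fold higher. Col3a1 read 13.3 and 253.2, a log2 ratio of 3.82, or at least 13.6-fold higher. Its other probe set gave 1.86. Col1a2 read 19.6 and 76.1, a ratio of 1.72, and Col1a1 read 9.4 and 21.8, at least 1.17-fold higher, with a ratio of 2.03 at its other probe set. Col2a1, the collagen of cartilage and vitreous, was lower, at 389.5 and 245.3 with a ratio of -0.66. Col3a1 was also the gene whose pair of values lay nearest to those of Dcn, at a Euclidean distance of 0.99 over the log2 values of the 2 arrays. It was followed by the lens crystallin Crygf at 1.01, Col1a2 at 1.14, the membrane protein gene Emp3 at 1.17 and Crygd at 1.22. With 2 arrays, such nearness says only that values were alike.

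Markers of other cell types that a dissected retina can hold are given beside these differences. Among 12 markers of periocular mesenchyme and fibroblasts that encode no matrix protein, 11 were measured and 9 of these were below the filter on both arrays, among them Foxc2, Twist1, Prrx1 and Tbx18; none was at 0 on both. Their summed intensity was 221.2 on the wild-type and 138.1 on the knockout array. Pdgfra, a receptor of fibroblasts that retinal astrocytes also carry, read 156.2 and 74.9, a log2 ratio of -1.01 with -0.31 at its other probe set, and Foxc1 read 17.4 and 21.8, at least 1.17-fold higher. With 2 markers past the filter, one in each direction, and the sum carried largely by Pdgfra, this list says little about how much mesenchyme either sample held. Pericyte markers had a median of 0.43 over 5 of 8, and their sums were 327.7 and 407.6. Rgs5 was at 0.66, Pdgfrb at 0.58, Notch3 at -0.13 and Abcc9 at least 1.34-fold higher. The 4 probe sets of Rgs5 past the filter ranged from 0.66 to 1.17. Endothelial markers were past the filter in 2 of 8, Kdr at -0.56 and Cldn5 at 0.14, with sums of 859.0 and 666.8.

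Most macrophage, lens and pigment epithelium markers past the filter were higher on the knockout array, as were most of the matrix genes. Over all genes past the filter, bright and dim, 47.7% were positive. For macrophages, all 7 of 8 past the filter were positive, with a median of 1.20 and sums of 306.7 and 658.0. C1qb, C1qa and C1qc, above the filter on both arrays, had ratios of 1.31, 1.22 and 1.20, Mpeg1 read 7.3 and 51.1, at least 2.75-fold higher, and the 3 probe sets of C1qb ranged from 0.43 to 1.45. Lens markers had a median of 1.35 over 7 of 9, 6 of them positive, with sums of 205.6 and 505.2, with Crygf at 1.97, Cryga at 1.68 and Crygb at 1.35. Crygd read 4.2 and 60.7, at least 3.26-fold higher. All of these are crystallin genes. Lim2, which is not one, read 20.9 and 16.1, a log2 ratio of -0.30, and Mip and Bfsp1 were below the filter on both arrays. Pigment epithelium markers had a median of 0.85 over 6 of 8, all positive, with sums of 243.8 and 397.6. With values below the filter set to 18.6, that median was 0.30. Dct, above the filter on both arrays, had 0.91. The bounds for Ttr, Mlana and Tyr were at least 1.12-fold, 1.12-fold and 1.41-fold. Astrocyte markers had sums of 51.5 and 51.6, with Gfap at least 1.09-fold lower and Aldh1l1 at least 1.23-fold higher. The part of any of these cell types in the matrix gene values was not tested, and in whole tissue, more cells of a type and more RNA per cell cannot be told apart.

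**Figure D3:**
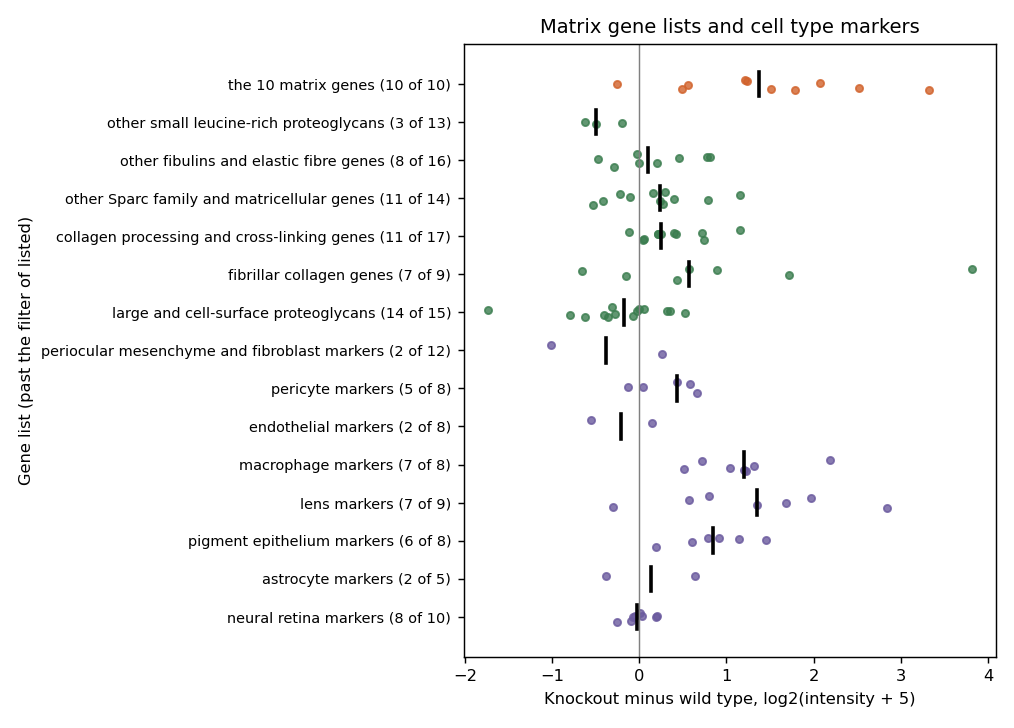
Log2 ratios (knockout minus wild type) of the genes past the filter in each list, 1 point per gene with black bars at the list median; numbers in brackets give genes past the filter of those listed. The median of the 10 matrix genes (1.37) lies to the right of that of the other small leucine-rich proteoglycans (-0.49), and the medians of the macrophage (1.20), lens (1.35) and pigment epithelium (0.85) markers lie to the right of 0, although single genes of the 10 and of the lens list lie left of it.

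The size of the ratios depended on the processing settings. Dcn ranged from 2.47 to 3.92 and Lum from 1.30 to 3.36 over the settings, with the low end from a larger pseudocount or from setting dim values to the filter, and the high end from no pseudocount. Mgp ranged from 1.45 to 2.50. Dcn, Lum, Mgp and Efemp1 were at least 2-fold higher under every setting that gave them a value. Bgn and Pcolce were at 0.88 and 0.94 with the pseudocount at 18.6, and Postn at 0.89 with dim values at the filter. Of the 16 probe sets past the filter, 2 took both signs over the settings, 1422540_at of Fbln1 and 1419662_at of Ogn.

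**Figure D4:**
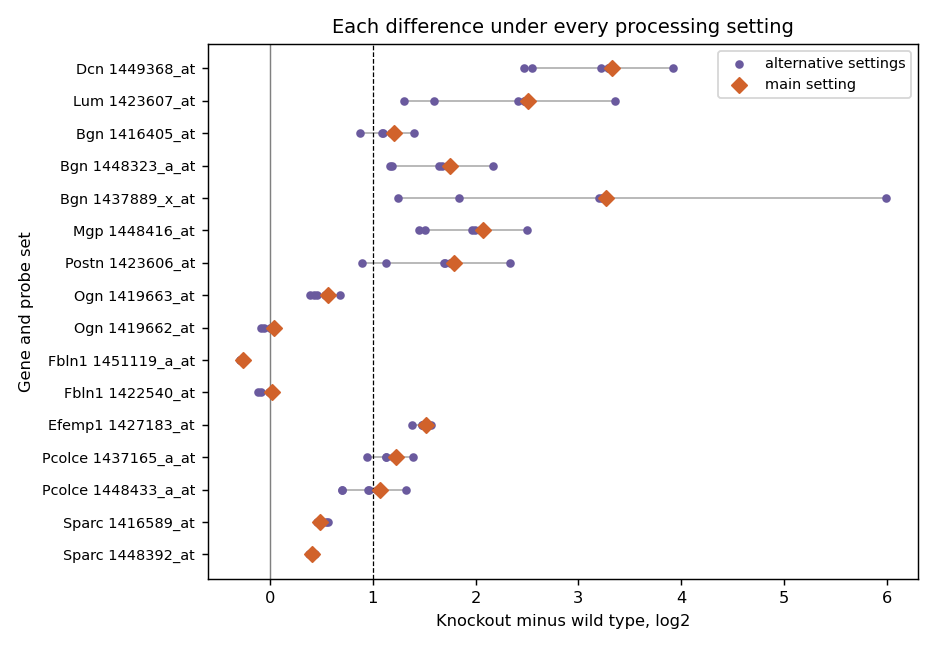
Log2 ratio (knockout minus wild type) of each of the 16 matrix gene probe sets past the filter, as reported (diamonds) and under each alternative setting that gave a value (dots), with lines over the range; the dashed line marks 2-fold and the solid line 0. Efemp1 and Sparc hardly move, while dim probe sets such as Bgn 1437889_x_at, from 1.25 to 5.99, depend on the setting.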

How the data were processed

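Per the labels' protocols, RNA from 1 retina of each genotype was primed with oligo-dT, amplified, biotin-labelled and hybridised. The deposited values are linear intensities, 1 per probe set and array. The authors' software is not given in the sources used here, and detection calls were not used. Common scaling was read from the values: the mean without 2% at each end was 100 on both arrays.

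Leaving out 64 control probe sets left 45037. With Python 3.11.15, intensities became log2(intensity + 5), with no further normalization. Probe sets whose higher value reached 18.6 were kept (52.4%). Names came from GEO's platform annotation (1 symbol for 34945 probe sets, several for 932, none for 9160). A gene took its brightest kept probe set, by mean log2 value. Named genes were the 10 members, Sox11, their cluster neighbours, up to 4 genes per list with the largest absolute ratios, and the 5 nearest to Dcn. Members and lists were chosen with earlier results of these data known. Alternatives covered scaling, pseudocount, filter, probe sets that can match several transcripts (of the same gene or of others) and probe set summary. The counting procedure was tested on simulated data.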

Additional observations from a re-analysis of the deposited data

How the results depend on the processing

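With 1 array per genotype, no animal could be left out, and no paired analysis was possible because each group has 1 sample. The median of the 10 genes was 1.04 with the pseudocount at 18.6, 1.64 when each gene took the median of its probe sets, and 1.003 with the filter at 109.4. With the filter at 109.4, Dcn and Efemp1 were the 2 genes, by 2 probe sets, at least 2-fold higher, of 4 left. Without the probe sets that can match several transcripts, 6 member probe sets were at least 2-fold higher. Over all probe sets, 606 were 2-fold higher and 166 lower with no pseudocount, 84 and 37 with it at 18.6, 912 and 617 with no filter, and 35 and 24 with the filter at 109.4. Over all genes these counts were 169 and 80, 34 and 14, 273 and 237, and 17 and 11. The other settings left these counts within 1.5 times and the median of the 10 within 0.26. Medians of other lists moved too, beside a range of 1.003 to 1.64 for the 10 genes. Over the settings, fibrillar collagens ran from 0.42 to 1.58, lens from 0.57 to 1.53 and macrophages from 0.72 to 1.34. Pericytes ran from 0.28 to 0.66, elastic fibre genes from 0.06 to 0.46 and mesenchyme markers from -1.01 to -0.20, fewer genes being left under the higher filter. No named gene at least 2-fold apart changed sign. Dimness limits Dcn, Lum, Mgp and Postn, whose wild-type signal has only an upper bound of 18.6.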

Other observations

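Larger proteoglycans and collagen-processing genes were not part of the 10 genes. Of 15 large and cell-surface proteoglycans, 14 were past the filter, 10 with a negative ratio, and their median was -0.17. Bcan (brevican), a proteoglycan of the brain matrix, read 57.9 on the wild-type array and 13.9 on the knockout array, at least 3.11-fold lower. Hspg2 (perlecan of basement membranes) had a log2 ratio of -0.79 at its brighter probe set and 0.56 at the other, Gpc2 (a neuronal glypican) had -0.62, and Vcan (versican) had 0.53. Of 17 collagen processing and cross-linking genes, 11 were past the filter and 10 were positive, and their median was 0.25. Tll1, a protease of the family whose cleavage of procollagens Pcolce enhances, read 37.5 and 89.5, a log2 ratio of 1.15. P4ha2 and the collagen chaperone Serpinh1 had 0.72 and 0.42, and Adamts3 was at least 1.53-fold higher. Over all genes past the filter, 47.7% had a positive ratio.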
